A study of Rattus norvegicus with 20 samples.

Results

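The macrophage marker genes described here are Cd68, Cd163, Mrc1, Csf1r, Cd14, Msr1, Marco, Tyrobp, Fcer1g and Aif1. They were taken by name: every probe on the array whose gene name equals 1 of these 10 symbols was read on every array. This gave 13 probes of 30367 distinct probes, with Aif1, Csf1r and Fcer1g on 2 probes each and every other gene on 1. Of these, 12 probes of 9 genes passed a filter on dim probes and entered the tests, among 16424 genes tested in all. Marco did not pass and is described by its signal alone. Of the 10 genes, 8 were well above background on all 20 arrays, Mrc1 on 16 and Marco on 5. The same held on all 20 arrays for 14413 of the 26243 gene names on the array. Detection is thus no check of the cell type.

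The study measured total RNA of whole mesenteric artery, the vessel bed that feeds the intestine, from rats of 3 Izm colonies on single-colour arrays. The 5 groups of 4 arrays were SHRSP/Izm (stroke-prone spontaneously hypertensive rats, untreated), SHR/Izm (the spontaneously hypertensive strain from which they derive, untreated), WKY/Izm with 1K1C, WKY/Izm with 2K1C, and untreated WKY/Izm, the normotensive strain. In 1K1C (1-kidney, 1-clip) a clip narrows the artery of 1 kidney and the other kidney is removed. In 2K1C (2-kidney, 1-clip) the other kidney stays. All rats carry the label 6 weeks of age, with 3 weeks given for operation or no operation, and whether this age applies to the operation or to the sampling is not clear from them. Arrays are labelled as biological replicates. No sham operation is among the groups, so operation and clip cannot be told apart. A level below is the log2 processed signal minus the 75th percentile of its own array, given as mean ± SD with n = 4 arrays a group. A difference is the first-named group minus the second on the log2 scale, given ± SE from limma. A gene is called, and is said to have risen or fallen, where the Benjamini-Hochberg adjusted p over all tested genes is under 0.05.

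Macrophages of the artery wall lie mainly in the adventitia and the surrounding fat, where they take up debris, lipoproteins and haemoglobin and respond to injury and pressure. They depend on signals through Csf1r, the receptor for colony-stimulating factor 1 and interleukin-34. Their surface carries scavenger receptors (Cd163, Msr1, Marco, Mrc1) and the lipopolysaccharide co-receptor Cd14. The membrane adaptors Tyrobp and Fcer1g pass on signals from receptors that lack a signalling tail of their own, and are shared with natural killer cells, mast cells and other myeloid cells. In whole tissue RNA, fewer macrophages and less marker RNA per macrophage cannot be told apart.

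Each value rests on a 60-base probe. The probes shown are those of Msr1, Cd163, Mrc1, Cd14, Tyrobp and Marco, with both probes of Csf1r because they differ from each other. They are a selection and follow no ranking of the values. Positions are those of the array design on rat build rn4, and all letters are shown alike in lower case. The Msr1 probe lies at chr16:56293586-56293645 on the + strand and starts at base 648 of the transcript that the design names. The Cd163 probe lies at chr4:160423704-160423763 (+) and the Cd14 probe at chr18:29374990-29375049 (-). The Mrc1 probe is split over chr17:88489156-88491763 (+), a span of 2608 bases. The Tyrobp probe lies at chr1:85369110-85369169 (+). The tested Csf1r probe lies at chr18:57093036-57093095 (+), and the second probe is split over chr18:57105231-57105932 (+), a span of 702 bases. The Marco probe spans 163 bases of sequence that rn4 had not placed on a chromosome. A span over 60 bases means that the probe aligned to the genome in pieces. The annotation of rn4 exons was not used here.
Msr1: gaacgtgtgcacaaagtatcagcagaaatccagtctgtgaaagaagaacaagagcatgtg
Cd163: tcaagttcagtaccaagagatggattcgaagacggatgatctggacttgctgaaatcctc
Mrc1: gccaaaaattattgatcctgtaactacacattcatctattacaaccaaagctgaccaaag
Cd14: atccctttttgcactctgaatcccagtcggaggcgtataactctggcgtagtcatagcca
Tyrobp: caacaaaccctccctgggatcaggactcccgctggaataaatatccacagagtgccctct
Csf1r, tested probe: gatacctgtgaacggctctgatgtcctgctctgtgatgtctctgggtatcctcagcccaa
Csf1r, second probe: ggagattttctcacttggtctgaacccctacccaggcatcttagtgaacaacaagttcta
Marco: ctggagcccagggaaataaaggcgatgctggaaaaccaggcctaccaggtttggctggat

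Some arrays stand apart in markers of other cell types, and several of the results below involve them. The mean log2 level of 7 tested B, T and natural killer lymphocyte markers was 1.11 on 2K1C replicate 4 and 0.06 on SHRSP replicate 4, and between -5.01 and -2.42 on the other 18 arrays. Those 2 arrays also had the highest pan-leukocyte level, 2.59 and 1.69. The mean log2 level of 5 mesothelium markers was -0.23 on SHR replicate 1, -1.10 on 1K1C replicate 2, -0.47 on untreated WKY replicate 2 and -1.51 on untreated WKY replicate 3. On every other array it was -2.70 or lower. The smooth muscle level was lowest on 1K1C replicate 2, at 0.37, and the neuron level highest on untreated WKY replicate 1, at 4.28. Of the marker genes that define the labelled tissue, all 10 smooth muscle and all 10 endothelium genes were tested, and 9 and 10 of them were well above background on all 20 arrays. Arrays lay on 3 slides. SHR and SHRSP shared slide 3, 1K1C and untreated WKY shared slide 2, and 2K1C was alone on slide 1. In both shared slides each group had its own row. Group and row cannot be told apart in SHRSP against SHR and 1K1C against untreated WKY, and group and slide cannot be told apart in the other comparisons. Across arrays the 75th percentile ran from 574.5 to 1193 signal units, and no spot was saturated.

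**Figure D1:**
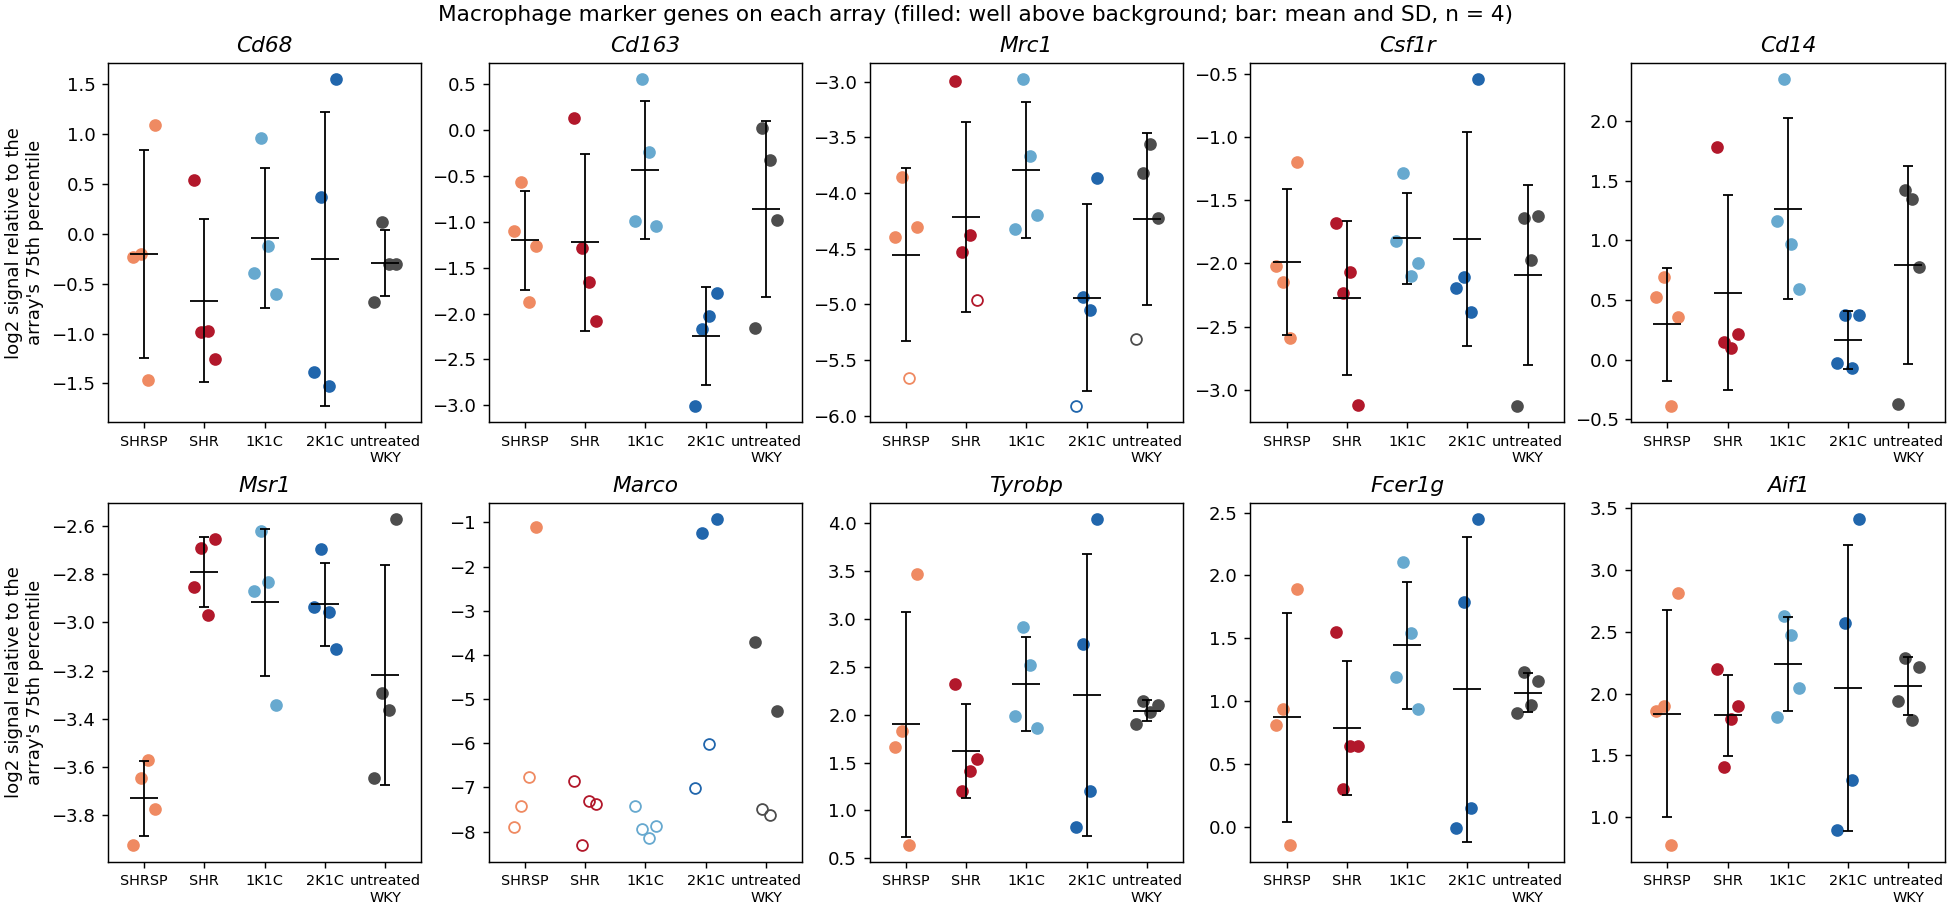
Log2 level of each marker gene on each of the 20 arrays (1 point per array, filled where the probe was well above background, open where it was not), by group, with the group mean and SD (n = 4) as a black bar for the tested genes; each panel has its own axis. The 4 SHRSP points of Msr1 lie below all 4 SHR points, 2K1C replicate 4 and SHRSP replicate 4 are the highest Tyrobp points, and Marco is above background on 5 arrays.

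The clearest difference among the markers was that of Msr1, the class A scavenger receptor that takes up modified lipoproteins, which fell in SHRSP relative to SHR. The Msr1 level was -3.92, -3.64, -3.57 and -3.77 on the SHRSP arrays, against -2.85, -2.69, -2.97 and -2.66 on the SHR arrays. Every SHRSP array was lower than every SHR array. The difference was -0.94 ± 0.19, a level in SHRSP of 0.523 times that in SHR (limma adjusted p = 0.0413, 95% interval -1.34 to -0.53). It was the only 1 of the 9 tested markers called between these strains, where 0.359% of all tested genes were called, and the only one whose groups did not overlap, as in 3.5% of all genes. By p it stood at rank 56 of the 59 genes called.

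In the other groups the Msr1 level was -2.87, -2.62, -2.83 and -3.34 with 1K1C, -2.94, -2.70, -2.96 and -3.11 with 2K1C, and -3.64, -3.29, -3.36 and -2.57 in untreated WKY. The untreated WKY arrays overlapped both strains. The order of group means ran from SHR (-2.79 ± 0.15) through 1K1C (-2.92 ± 0.30), 2K1C (-2.93 ± 0.17) and untreated WKY (-3.22 ± 0.46) to SHRSP (-3.73 ± 0.16). Only the step from untreated WKY to SHRSP was larger than the SD of both groups beside it. Against untreated WKY, the difference was -0.51 ± 0.19 in SHRSP (limma adjusted p = 0.192) and 0.43 ± 0.19 in SHR (adjusted p = 0.332), so neither strain was called. Without untreated WKY replicate 4, the highest of its group, the SHR difference was 0.64 ± 0.16 (adjusted p = 0.0356). In that fit 669 of the 16424 tested genes were called in SHR against untreated WKY, and 303 with all arrays.

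The call of Msr1 between SHRSP and SHR rests close to the threshold. Its difference ran from -1.02 to -0.58 over 19 alternatives, with the smallest after normexp background correction and quantile normalization (limma adjusted p = 0.074). The adjusted p passed the threshold in 5 of them, and was 0.492 with unscaled deposited values. Leaving out any 1 of the 8 arrays gave an adjusted p of 0.0718 to 0.20. The Msr1 signal was low, though well above background on all 20 arrays. It was 67.8 to 87.1 on the SHRSP arrays and 99.6 to 168 on the SHR arrays. Msr1 has 1 probe, so a change of the transcript and a change of hybridisation to that probe cannot be told apart. Of the 20 tested genes nearest to Msr1 in chromosomal order, 10 on each side in the RefSeq gene table, 0 were called by limma in the same comparison (0.359% of all genes were). Of these 20, 0 had an unadjusted p under 0.05, beside 585 of the 16424 tested genes. The median difference of the 20 was 0.02, and the adjacent genes Micu3 and Tusc3 differed by 0.23 ± 0.37 and -0.24 ± 0.24. In SHRSP against SHR all 13 tested pan-leukocyte genes were higher (median 0.52), and 6 of 7 lymphocyte genes (median 0.74). All 5 tested mesothelium genes were lower (median -0.83) and all 9 pancreas genes (median -1.05). None of these was called. On SHRSP replicate 4 the mean log2 level was 1.69 (pan-leukocyte), 0.06 (lymphocyte) and -5.44 (pancreas), outside the range of all other SHRSP and SHR arrays. On the other SHRSP arrays these levels were -1.59 to -0.43, -5.01 to -3.79 and -0.72 to 1.69. In SHR they were -1.39 to -0.13, -4.83 to -2.44 and -1.30 to 0.70. Summed mesothelium levels were 0.238 to 0.736 in SHRSP and 0.197 to 14.1 in SHR, in units of the 75th percentile. Summed lymphocyte levels were 0.33 to 14.2 in SHRSP and 0.342 to 2.12 in SHR. Without both SHRSP replicate 4 and 2K1C replicate 4 the Msr1 difference was -0.92 ± 0.22 (adjusted p = 0.129). As deviations from group means over the 20 arrays, Msr1 had its largest correlations with the endothelium (0.55) and neuron (-0.54) levels. The part of other cells in the Msr1 difference was not tested.

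Cd163, Cd14 and Mrc1 formed a second pattern, with the widest gap between the 2 operations. Cd163 is the receptor for haemoglobin bound to haptoglobin, Mrc1 the mannose receptor, and both are used to mark resident macrophages of vessel and fat. The Cd163 level was -0.99, 0.55, -0.24 and -1.05 with 1K1C, against -3.01, -2.16, -2.03 and -1.78 with 2K1C. All 4 arrays with 1K1C were higher than all 4 with 2K1C. The difference was 1.81 ± 0.51, a 3.51-fold higher level with 1K1C, and it was not called (limma adjusted p = 0.0745, 95% interval 0.74 to 2.89). The Cd14 level was 1.16, 2.35, 0.97 and 0.59 with 1K1C, against -0.03, 0.37, -0.07 and 0.37 with 2K1C, again without overlap. The Cd14 difference was 1.10 ± 0.44 (limma adjusted p = 0.158). In this comparison the groups did not overlap in 9.75% of all genes. Mrc1 differed by 1.15 ± 0.51 (limma adjusted p = 0.205), with overlapping groups at -3.79 ± 0.61 with 1K1C and -4.94 ± 0.84 with 2K1C. The Mrc1 probe was well above background on all 4 arrays only with 1K1C, the group of its highest mean. It thus passed the filter on dim probes through that group alone.

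Among all groups Cd163 was lowest with 2K1C (-2.24 ± 0.53). It was -1.20 ± 0.54 in SHRSP, -1.22 ± 0.96 in SHR, -0.43 ± 0.75 with 1K1C and -0.86 ± 0.96 in untreated WKY. The gap between 2K1C and SHR was larger than the SD of either, and no other step in the order was. Against untreated WKY the Cd163 difference was -1.38 ± 0.51 with 2K1C (limma adjusted p = 0.152), with overlapping groups: untreated WKY replicate 1 was at -2.15, inside the range of the 2K1C arrays, and replicates 2, 3 and 4 at 0.02, -0.32 and -0.98. Cd14 was 0.29 ± 0.47 in SHRSP, 0.56 ± 0.82 in SHR, 1.27 ± 0.76 with 1K1C, 0.16 ± 0.24 with 2K1C and 0.79 ± 0.83 in untreated WKY. Mrc1 was -4.55 ± 0.78 in SHRSP, -4.22 ± 0.85 in SHR and -4.23 ± 0.77 in untreated WKY. The Mrc1 probe was not well above background on SHR replicate 4, SHRSP replicate 3, 2K1C replicate 1 and untreated WKY replicate 1, so those values are close to background.

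Lists of other cell types also had medians away from 0 in the contrast of operations. In 1K1C against 2K1C all 7 adipocyte genes were higher (median 1.36) and all 9 tested mast cell genes (median 1.06), and all 10 smooth muscle genes were lower (median -1.42). All 9 pancreas genes were higher as well (median 0.90), and 5 of 7 fibroblast genes (median 0.63). Lower were 6 of 7 lymphocyte genes (median -0.94), 3 of 4 dendritic cell genes (median -0.55) and 10 of 13 pan-leukocyte genes (median -0.38). None of these genes was called. The lymphocyte, dendritic cell and pan-leukocyte values rested on 2K1C replicate 4, with mean log2 levels of 1.11, -0.91 and 2.59, above every 1K1C array. On 2K1C replicates 1 and 3 each of these lists was below every 1K1C array. On 2K1C replicate 2 the levels were -2.42, -3.04 and -0.21. Cpa3, a mast cell protease, differed by 1.42 ± 0.73, Cidec, a lipid droplet protein of adipocytes, by 1.85 ± 0.53, and Des, the muscle filament protein desmin, by -1.74 ± 0.68. Summed adipocyte levels were 143 to 355 with 1K1C and 58.1 to 126 with 2K1C, in units of the 75th percentile, without overlap. Summed smooth muscle levels were 47 to 331 with 1K1C and 251 to 537 with 2K1C, and summed mast cell levels 3.03 to 11.1 with 1K1C and 1.04 to 7.77 with 2K1C. Of the mast cell genes on the array only Mrgprb3 was below background on all 20 arrays. Mesothelium levels were 0.19 to 6.4 with 1K1C and 0.13 to 1.79 with 2K1C. The part of these cells in the Cd163, Cd14 and Mrc1 differences was not tested. Without 1K1C replicate 4 the Cd163 difference was 2.02 ± 0.55 (limma adjusted p = 0.0301). In that fit 1896 of the 16424 tested genes were called, against 0 with all arrays. Over the 8 fits that leave out 1 array the Cd163 difference ran from 1.48 to 2.02, with an adjusted p of up to 0.30.

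Tyrobp, Fcer1g, Aif1 and Cd68 formed the broadest pattern, and it followed single arrays more than groups. Tyrobp encodes the adaptor DAP12. Its level was 1.66, 1.83, 0.63 and 3.47 in SHRSP, 2.32, 1.20, 1.41 and 1.53 in SHR, 1.99, 2.92, 2.52 and 1.86 with 1K1C, 0.83, 2.73, 1.21 and 4.04 with 2K1C, and 1.90, 2.14, 2.03 and 2.10 in untreated WKY. The highest values are those of 2K1C replicate 4 and SHRSP replicate 4, and the untreated WKY values lie inside the range of every other group. The SD was 1.17 in SHRSP, 0.49 in SHR, 0.49 with 1K1C, 1.48 with 2K1C and 0.11 in untreated WKY. Cd68, a glycoprotein of lysosomes, was also most spread with 2K1C, from -1.53 to 1.55. Its level was -0.20 ± 1.04 in SHRSP, -0.67 ± 0.81 in SHR, -0.04 ± 0.70 with 1K1C, -0.25 ± 1.47 with 2K1C and -0.29 ± 0.33 in untreated WKY.

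Fcer1g, the gamma chain shared by Fc receptors, and Aif1, the calcium-binding protein known as IBA1, had group means close to each other. Fcer1g levels were 0.87 ± 0.83 in SHRSP, 0.79 ± 0.54 in SHR, 1.44 ± 0.51 with 1K1C, 1.09 ± 1.21 with 2K1C and 1.07 ± 0.16 in untreated WKY. Aif1 levels were 1.84 ± 0.84 in SHRSP, 1.82 ± 0.33 in SHR, 2.24 ± 0.38 with 1K1C, 2.05 ± 1.16 with 2K1C and 2.06 ± 0.24 in untreated WKY. In neither gene was any step between neighbouring group means larger than the SDs beside it, and the same held for Tyrobp, Cd68, Csf1r, Mrc1 and Cd14. The 2 Fcer1g probes had a correlation of 0.99 over the 20 arrays and the 2 Aif1 probes of 0.98. Small differences still changed sign between probes in 2K1C against untreated WKY. Fcer1g differed there by 0.03 on the tested probe and -0.05 on the second, Aif1 by -0.01 and 0.09. In 1K1C against 2K1C Aif1 differed by 0.19 and -0.01. Csf1r levels were -1.99 ± 0.58 in SHRSP, -2.27 ± 0.61 in SHR, -1.80 ± 0.36 with 1K1C, -1.81 ± 0.85 with 2K1C and -2.09 ± 0.71 in untreated WKY. Its 2 probes had a correlation of 0.86, and they differed in sign in SHRSP against untreated WKY (0.10 for the tested probe, -0.32 for the second) and in 2K1C against untreated WKY (0.28 and -0.29), with no call for either.

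These values were also computed without the 2 arrays with high lymphocyte markers. Without them Tyrobp differed from untreated WKY by -0.45 ± 0.41 with 2K1C (limma adjusted p = 0.544), and by 0.16 ± 0.59 with all arrays (adjusted p = 0.887). In SHRSP it differed by -0.67 ± 0.41 without them (adjusted p = 0.449) and by -0.15 ± 0.59 with all arrays (adjusted p = 0.934). Cd68 differed with 2K1C by -0.56 ± 0.52 without them and by 0.04 ± 0.63 with all arrays. Neither gene was called with or without those arrays.

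Marco, a scavenger receptor found in mice on macrophages of the splenic marginal zone and of lymph nodes, was well above background on 5 arrays. Its processed signal was 554 on SHRSP replicate 4, 399 on 2K1C replicate 4 and 310 on 2K1C replicate 2. It was 71.7 on untreated WKY replicate 1 and 23.4 on untreated WKY replicate 4, and between 3.08 and 11.9 on the other 15 arrays, where it was not well above background. No SHR or 1K1C array was above background. The 3 highest Marco arrays were the 3 with the highest mean log2 lymphocyte marker level, at 0.06, 1.11 and -2.42 in the order just given. SHR replicate 1 had almost the same lymphocyte level as the third of these, -2.44, with a Marco signal of 8.16, not above background. The part of lymphoid tissue in these signals was not tested. As Marco was not well above background on all 4 arrays of any group, it was left out of the tests.

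**Figure D2:**
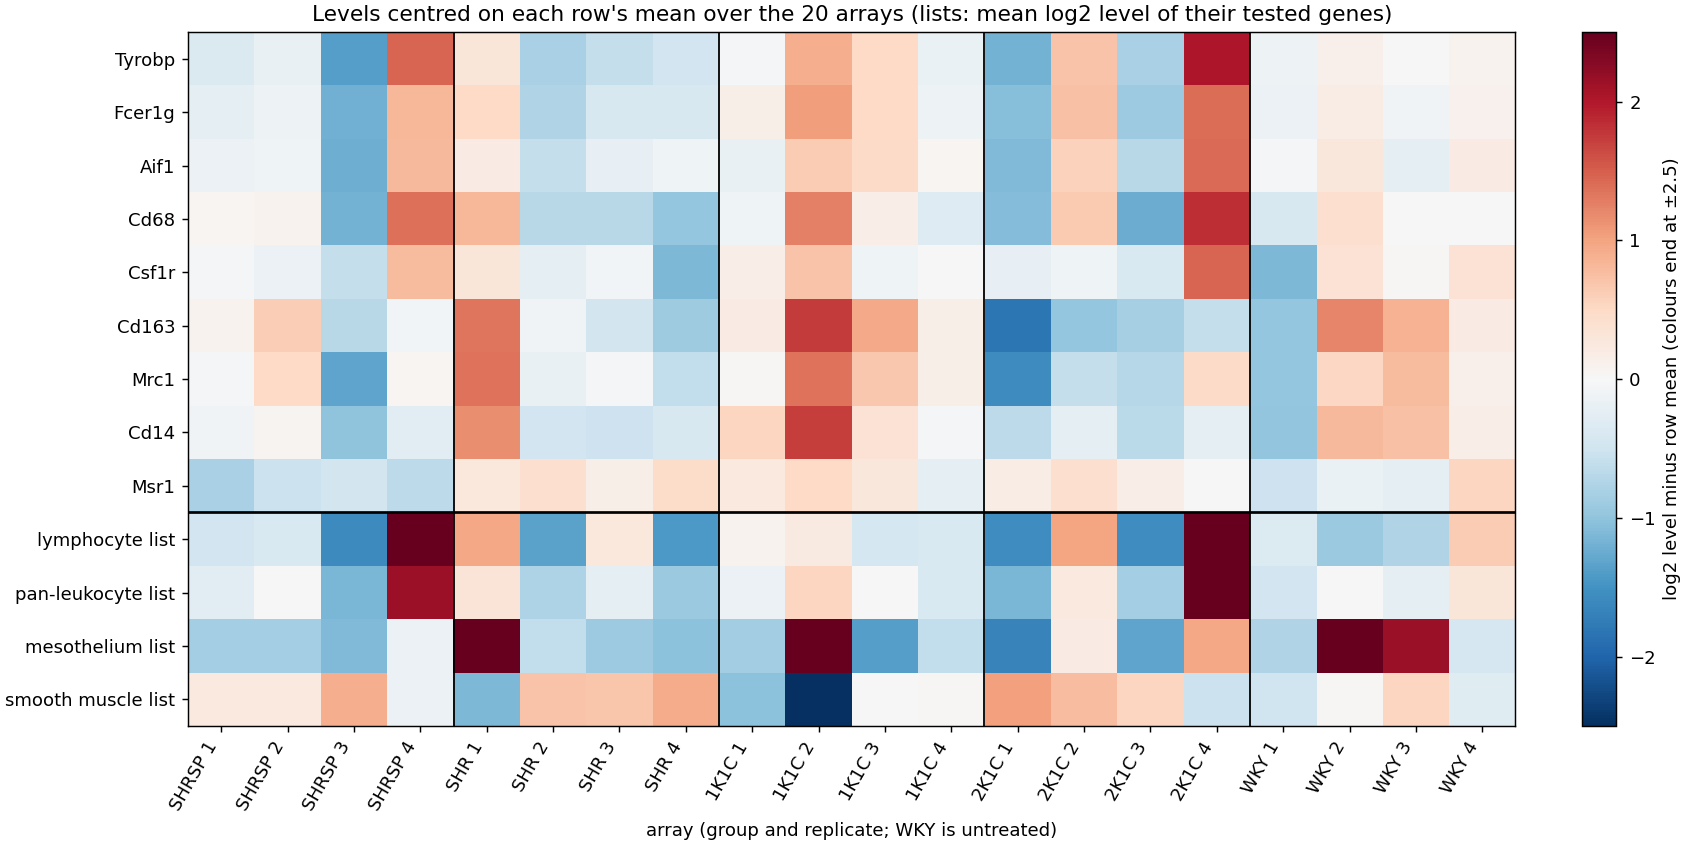
Levels of the 9 tested marker genes (upper rows) and mean log2 levels of 4 marker lists of other cell types (lower rows) on the 20 arrays, each row centred on its own mean, with colours ending at 2.5 log2 units on either side. Tyrobp, Fcer1g, Aif1 and Cd68 are highest on 2K1C 4 and high on SHRSP 4 with the lymphocyte and pan-leukocyte lists; Cd163, Mrc1 and Cd14 are highest on SHR 1 and 1K1C 2, where the mesothelium list is high.

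Each group contrast as a whole showed few differences among the markers. In SHR against untreated WKY 0 of the 9 tested markers were called by limma, where 1.84% of all genes were called. The markers' median difference was -0.23 against 0.02 for all genes, with 7 of 9 lower. An unadjusted limma p under 0.05 was found for 1 of 9 markers (Msr1) and for 2294 of the 16424 tested genes. The markers' median was -0.54 without SHR replicate 1, -0.47 without untreated WKY replicate 1 and -0.07 without untreated WKY replicate 2. In SHRSP against untreated WKY 0 were called (2.39% of all genes), with a median of -0.22 against 0.00 and 7 of 9 lower. Msr1 had the 1 unadjusted p under 0.05 among the markers, beside 2735 of the 16424 tested genes. The direction rested on single arrays: the median was 0.13 with 6 of 9 higher without SHRSP replicate 3, and -0.50 with 0 of 9 higher without SHRSP replicate 4. In 2K1C against untreated WKY 0 were called (0.0122% of all genes), with a median of 0.03 against 0.03 and 5 of 9 higher. For Aif1, Csf1r and Fcer1g the sign in this comparison differed between the tested and the second probe. Cd163 was the 1 marker with an unadjusted p under 0.05, beside 3617 of the 16424 tested genes. Here too single arrays set the direction: the median was -0.47 with 1 of 9 higher without 2K1C replicate 4, and 0.37 with 6 of 9 higher without 2K1C replicate 1. These comparisons share the untreated WKY arrays.

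In 1K1C against untreated WKY, which lie on the same slide, all 9 tested markers were higher, by 0.18 (Aif1) to 0.47 (Cd14). The median was 0.30, against 0.10 for all genes, of which 65.4% were higher. None was called by limma (0% of all genes were), and 0 had an unadjusted p under 0.05, beside 1493 of the 16424 tested genes. Every marker's 95% interval included 0. With array weights the count of higher markers was 5 of 9, at a median of 0.04, and it was 7 of 9 without untreated WKY replicate 1 (median 0.12) and 8 of 9 without 1K1C replicate 2 (median 0.11). In 1K1C against 2K1C all 9 tested markers were higher with 1K1C on their tested probes, by 0.00 (Csf1r) to 1.81 (Cd163). Their median was 0.21 against 0.01 for all genes. On the second probes Aif1 differed by -0.01 and Csf1r by 0.51, beside 0.19 and 0.00 on the tested probes. None was called (0% of all genes were). An unadjusted limma p under 0.05 was found for 3 of the 9 markers (Cd163, Cd14 and Mrc1) and for 3536 of the 16424 tested genes. Mrc1 entered both comparisons with 1K1C only because its probe passed the filter on dim probes in that group. For 2 of the 9 markers the groups did not overlap, as in 9.75% of all genes. The count of higher markers was 7 of 9 after normexp background correction and 8 of 9 with array weights. It rested on single arrays: it was 4 of 9 without 2K1C replicate 1 or without 2K1C replicate 3 (medians -0.02 and 0.00), and 5 of 9 without 1K1C replicate 2 (median 0.06). Without 2K1C replicate 4 it was 8 of 9, at a median of 0.80. In the comparisons with untreated WKY no marker's groups were free of overlap, against 6.14% of all genes for SHR, 11.3% for SHRSP, 7.76% for 2K1C and 3.81% for 1K1C. In SHRSP against SHR 6 of 9 markers were higher, at a median of 0.02 against -0.01, and the count was 3 of 9 when arrays were scaled to their median. It was 8 of 9 without SHR replicate 1 (median 0.34) and 7 of 9 without SHRSP replicate 3 (median 0.37). Without SHRSP replicate 4 it was 3 of 9 (median -0.25).

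**Figure D3:**
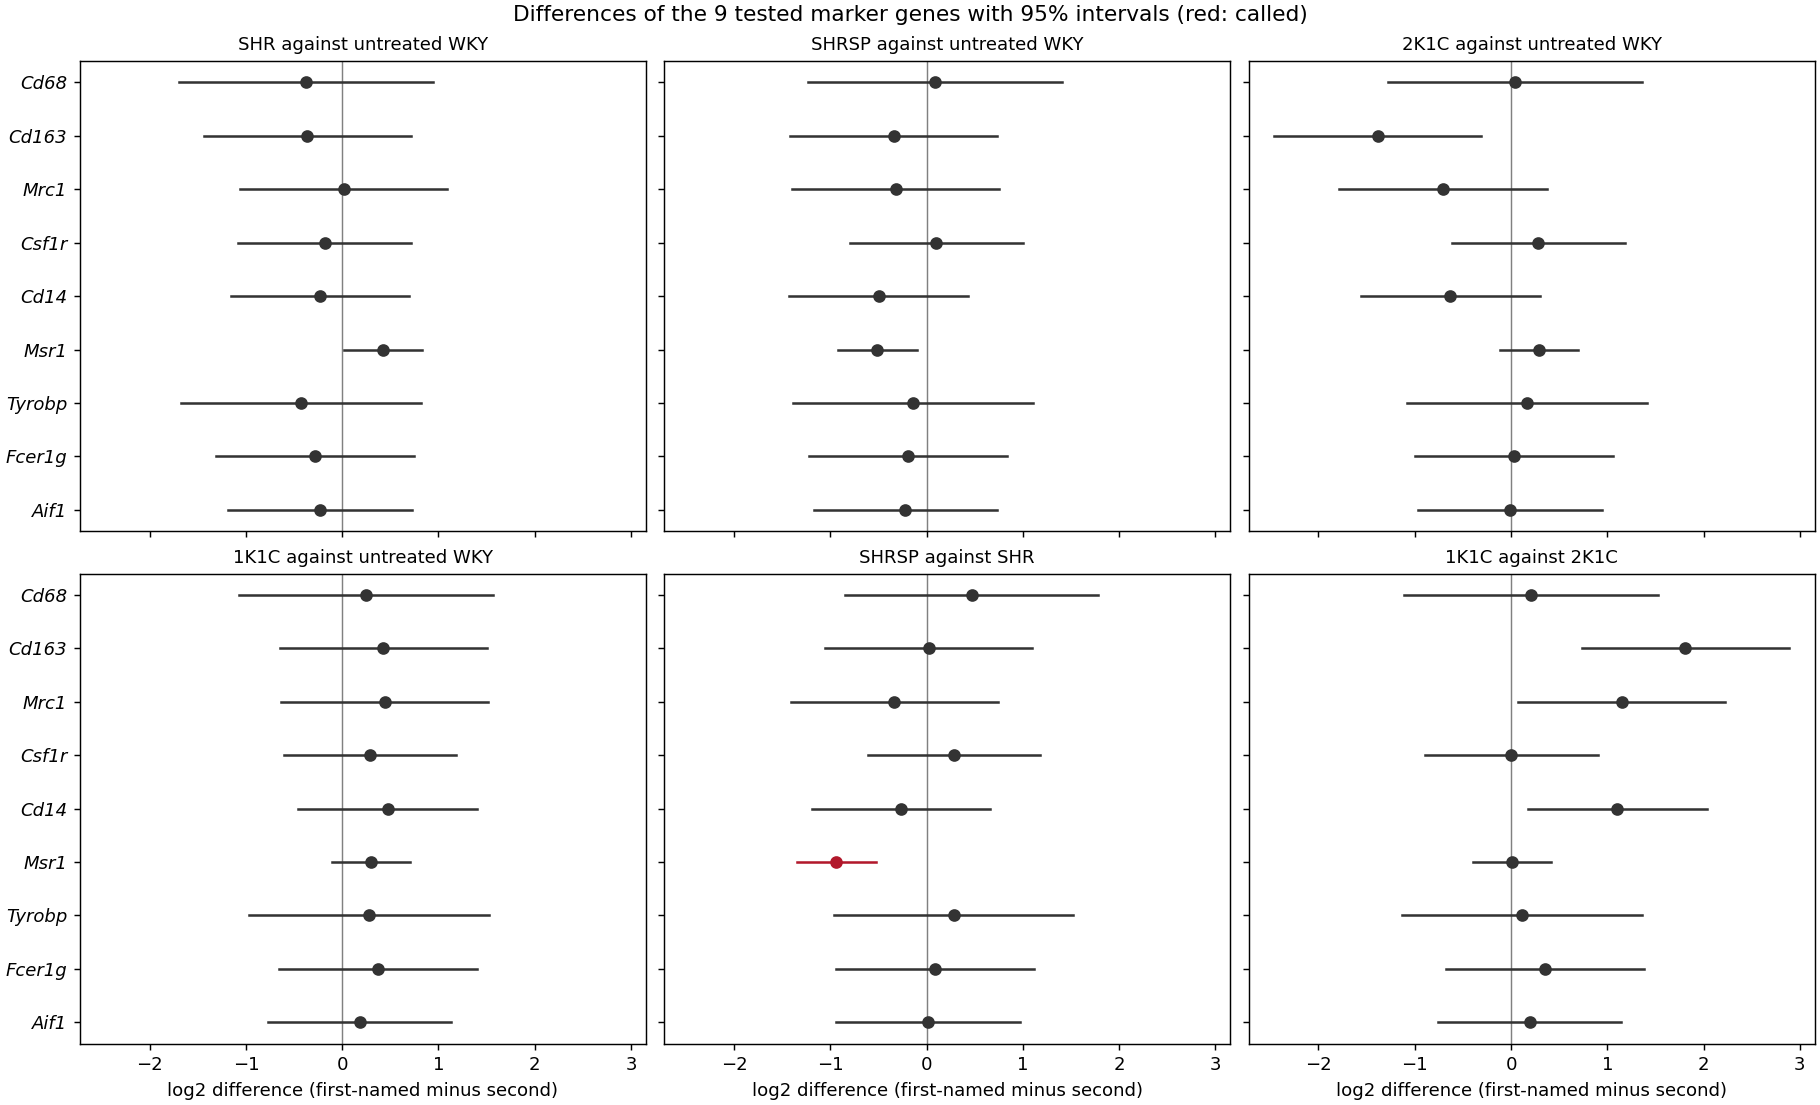
Log2 differences (points) with 95% intervals (lines) of the 9 tested marker genes in 6 comparisons, the first-named group minus the second, on 1 common axis. Msr1 in SHRSP against SHR, at -0.94, is the only called difference (red); Intervals that leave out 0 without a call are those of Cd163, Cd14 and Mrc1 in 1K1C against 2K1C, Cd163 in 2K1C against untreated WKY, and Msr1 in SHRSP and in SHR against untreated WKY.

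Across the 20 arrays the markers varied together to unequal degrees. Over the 36 pairs of tested markers the median Pearson correlation was 0.58, and 35 pairs were positive. These correlations describe 20 arrays that share 1 scaling step and a tissue of varying make-up, and carry no test. Tyrobp with Fcer1g had r = 0.97 (Spearman's rho 0.98), with 0.99 on the 18 arrays without 2K1C replicate 4 and SHRSP replicate 4, 0.98 within slide 2 and 0.97 within slide 3. Cd163 with Mrc1 had r = 0.91 (rho 0.91), with 0.95 without those 2 arrays. Cd163 with Cd14 had r = 0.89 (rho 0.88). The 12 pairs of 1 gene from Tyrobp, Fcer1g, Aif1 and Cd68 with 1 from Cd163, Mrc1 and Cd14 ran from 0.35 (Tyrobp with Cd163) to 0.68 (Cd68 with Mrc1), against 0.87 to 0.97 for pairs within either set. Without those 2 arrays these 12 pairs ran from 0.61 to 0.84, and pairs within a set from 0.85 to 0.99. Within slide 2 the 12 pairs ran from 0.49 to 0.87, overlapping the 0.77 to 0.98 of pairs within a set. Within slide 3 the 12 pairs ran from 0.40 to 0.73, below the 0.85 to 0.97 of pairs within a set. The 2 sets were named from the values of these same arrays, so higher correlations within them are no test of a split. Csf1r is in neither set. It had 0.81 with Cd68 and 0.51 with Cd14 over the 20 arrays, and 0.68 and 0.79 without 2K1C replicate 4 and SHRSP replicate 4. Msr1 had -0.05 to 0.27 with the other 8 markers over the 20 arrays, but 0.49 to 0.72 within slide 2 and -0.41 to 0.13 within slide 3 (8 arrays each).

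The marker lists went with the 2 sets to unequal and partly shared degrees. Of 12 lists of other cell types, the Tyrobp level had its highest correlations with the pan-leukocyte (0.93), dendritic cell (0.92) and lymphocyte (0.88) levels. Cd14 had 0.26, 0.26 and 0.14 with the same lists, and its highest with the neutrophil (0.84), mast cell (0.79) and mesothelium (0.76) levels, with -0.72 for smooth muscle. Cd163 had 0.76, 0.71 and 0.68 with those 3 lists and -0.63 with smooth muscle. Cd163 also had 0.68 with the adipocyte level. Tyrobp had 0.28, 0.68 and 0.47 with the neutrophil, mast cell and mesothelium levels. The mast cell level went with both sets: Fcer1g had 0.78 and Cd68 0.71 with it, beside 0.71 for Cd163 and 0.74 for Mrc1. Cd68 had 0.61 with the mesothelium level. The arrays in which Cd14 was highest were 1K1C replicate 2, SHR replicate 1 and untreated WKY replicates 2 and 3, and these were the same 4 arrays in which the mesothelium level was highest. Of the 4 highest arrays of Cd163 and of Mrc1, 3 were among them. The part of mesothelium, mast cells and neutrophils in these levels was not tested. Of 11 listed neutrophil genes, 6 were tested, and Elane, Ngp, Cxcr1 and Mmp8 were well above background on no array. By correlation with the mean of the centred tested markers over the 20 arrays, the 5 non-member genes most like the markers were Tbxas1 (thromboxane synthase, r = 0.97), Clec4a1 (0.96), C1qc (0.96), Igsf6 (0.96) and C1qb (0.96). By deviations from group means they were Tbxas1 (0.98), Tlr2 (0.97), Ctss (0.97), Igsf6 (0.97) and C1qb (0.97). C1qb and C1qc are chains of the complement protein C1q, Ctss is the lysosomal protease cathepsin S, and Tlr2 is a receptor for bacterial lipoproteins.

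**Figure D4:**
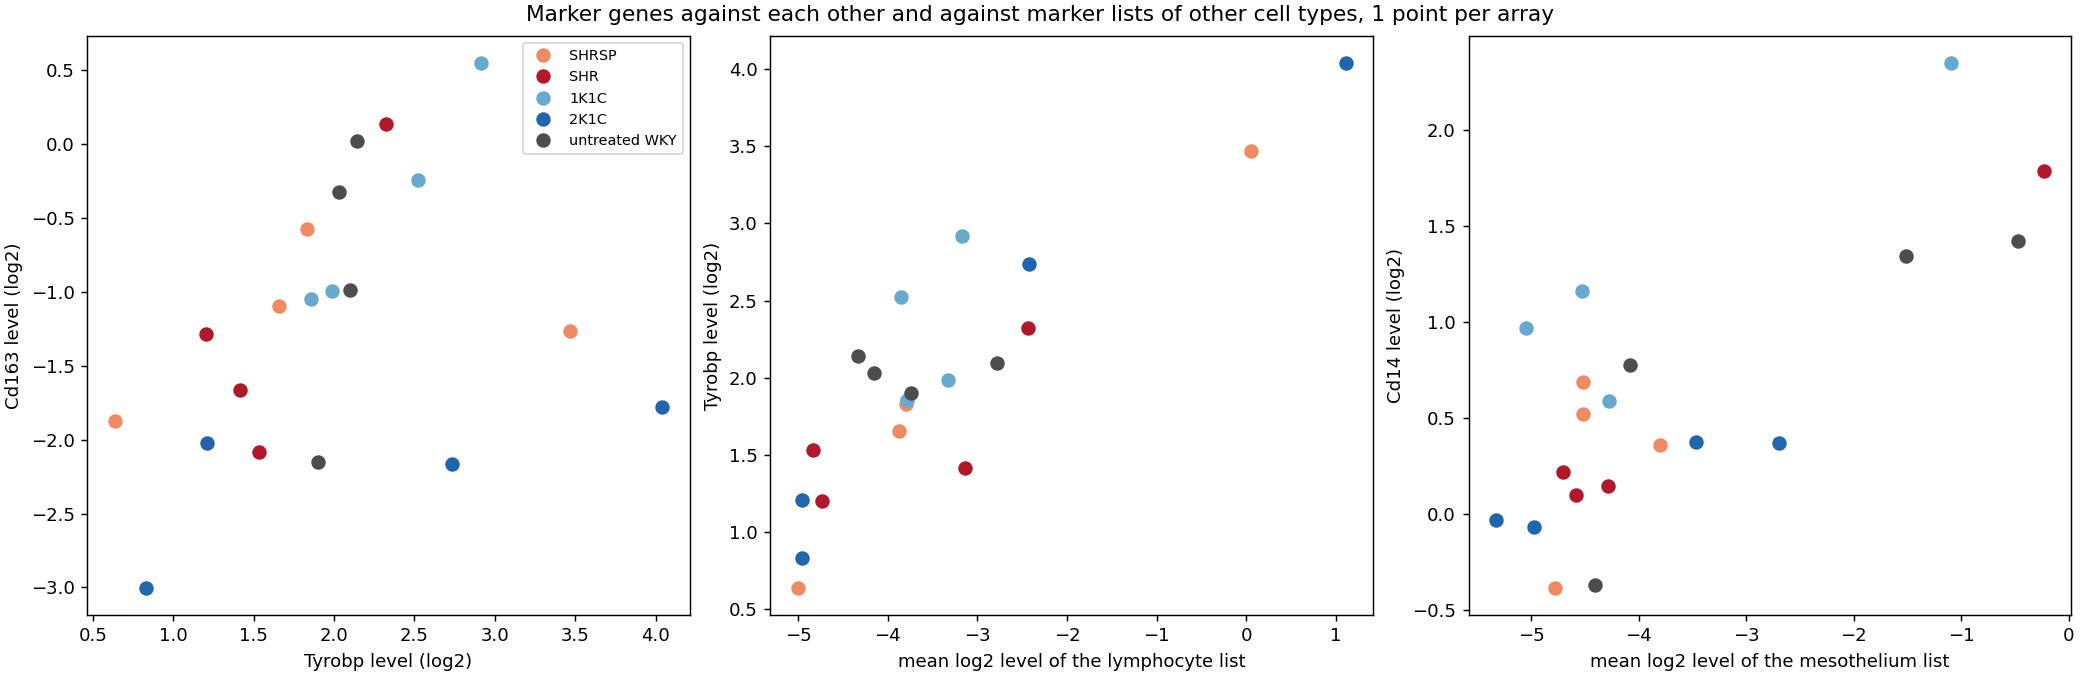
Scatter plots with 1 point per array in group colours: Cd163 against Tyrobp level, Tyrobp level against the mean log2 level of the lymphocyte list, and Cd14 level against the mean log2 level of the mesothelium list. Tyrobp is highest on the 2 arrays with lymphocyte levels of 1.11 and 0.06, and the 4 highest Cd14 arrays are the 4 with the highest mesothelium levels.

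Other genes of macrophage pathways were read from lists chosen with earlier results of these data known. Among 13 tested genes of the Cd14 and Tlr4 lipopolysaccharide pathway 10 were higher in SHR than in untreated WKY, at a median of 0.13, and 2 were called, where 1.84% of all genes were called. Nfkbia, the inhibitor that holds NF-kappa-B in the cytoplasm, was 2.36 ± 0.34 in SHR and 1.03 ± 0.26 in untreated WKY, a rise of 1.33 ± 0.31 (limma adjusted p = 0.0352). Lbp, the lipopolysaccharide-binding protein that hands its ligand to Cd14, was -2.12 ± 0.35 in SHR and -3.34 ± 0.38 in untreated WKY, a rise of 1.22 ± 0.28 (adjusted p = 0.0352). Both had groups that did not overlap, as in 6.14% of all genes. Of 18 alternatives, Nfkbia was called in 11 and Lbp in 10, and of the 8 fits that leave out 1 array each was called in 2 (adjusted p up to 0.126 and 0.137). In SHRSP against SHR, Lbp differed by -1.10 ± 0.28 (limma adjusted p = 0.187), also without overlap, as in 3.5% of all genes. Cd14 itself differed by -0.23 ± 0.44 in SHR against untreated WKY.

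No gene of the 6 other macrophage lists was called by limma in any of the 6 comparisons. Of 16 tested genes of tissue-resident and alternatively activated macrophages, 12 were higher with 1K1C than with 2K1C (median 0.62). F13a1, the coagulation factor XIII A chain found in resident macrophages, had the largest difference at 1.79 ± 0.45 (limma adjusted p = 0.0731). All 5 tested genes of C1q chains and complement receptors were higher in that comparison (median 0.60), all 5 were lower in SHR than in untreated WKY (median -0.47), and C1qc differed by 0.98 ± 0.64 between 1K1C and 2K1C. Of 21 tested scavenger, lysosomal and lipid-handling genes, 17 were higher with 1K1C than with 2K1C (median 0.45) and 17 with 1K1C than in untreated WKY (median 0.28); Apoe, the lipoprotein ligand, went the other way between the operations at -1.12 ± 0.47. Among 13 tested receptors and kinases that signal through Tyrobp or Fcer1g, 12 were higher with 1K1C than in untreated WKY (median 0.24), where 65.4% of all genes were higher. Trem1, an activating receptor coupled to Tyrobp, was well above background on all 4 arrays with 1K1C and on 1 of 4 with 2K1C, so its difference of 2.33 ± 0.58 (adjusted p = 0.0731) is set against values mostly at background. In that contrast 8 of the 13 genes of the list were lower (median -0.06). Of 9 tested Csf1r ligands and myeloid transcription factors, 8 were higher with 1K1C than in untreated WKY (median 0.34), and Irf8, well above background on all 4 arrays with 2K1C and on 2 of 4 in untreated WKY, differed between them by 1.68 ± 0.53 (adjusted p = 0.124). In 1K1C against 2K1C 5 of these 9 were higher (median 0.21). Of 11 tested monocyte and classically activated macrophage genes, 10 were higher in SHRSP than in SHR (median 0.27), with Spp1, which encodes osteopontin, at 1.77 ± 1.28. In 1K1C against 2K1C 7 of the 11 were lower (median -0.22). The resident macrophage receptor Timd4 differed from untreated WKY by 2.74 ± 0.94 in SHRSP, 2.96 ± 0.94 in SHR and 2.34 ± 0.94 with 2K1C (adjusted p = 0.148, 0.129 and 0.172).

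**Figure D5:**
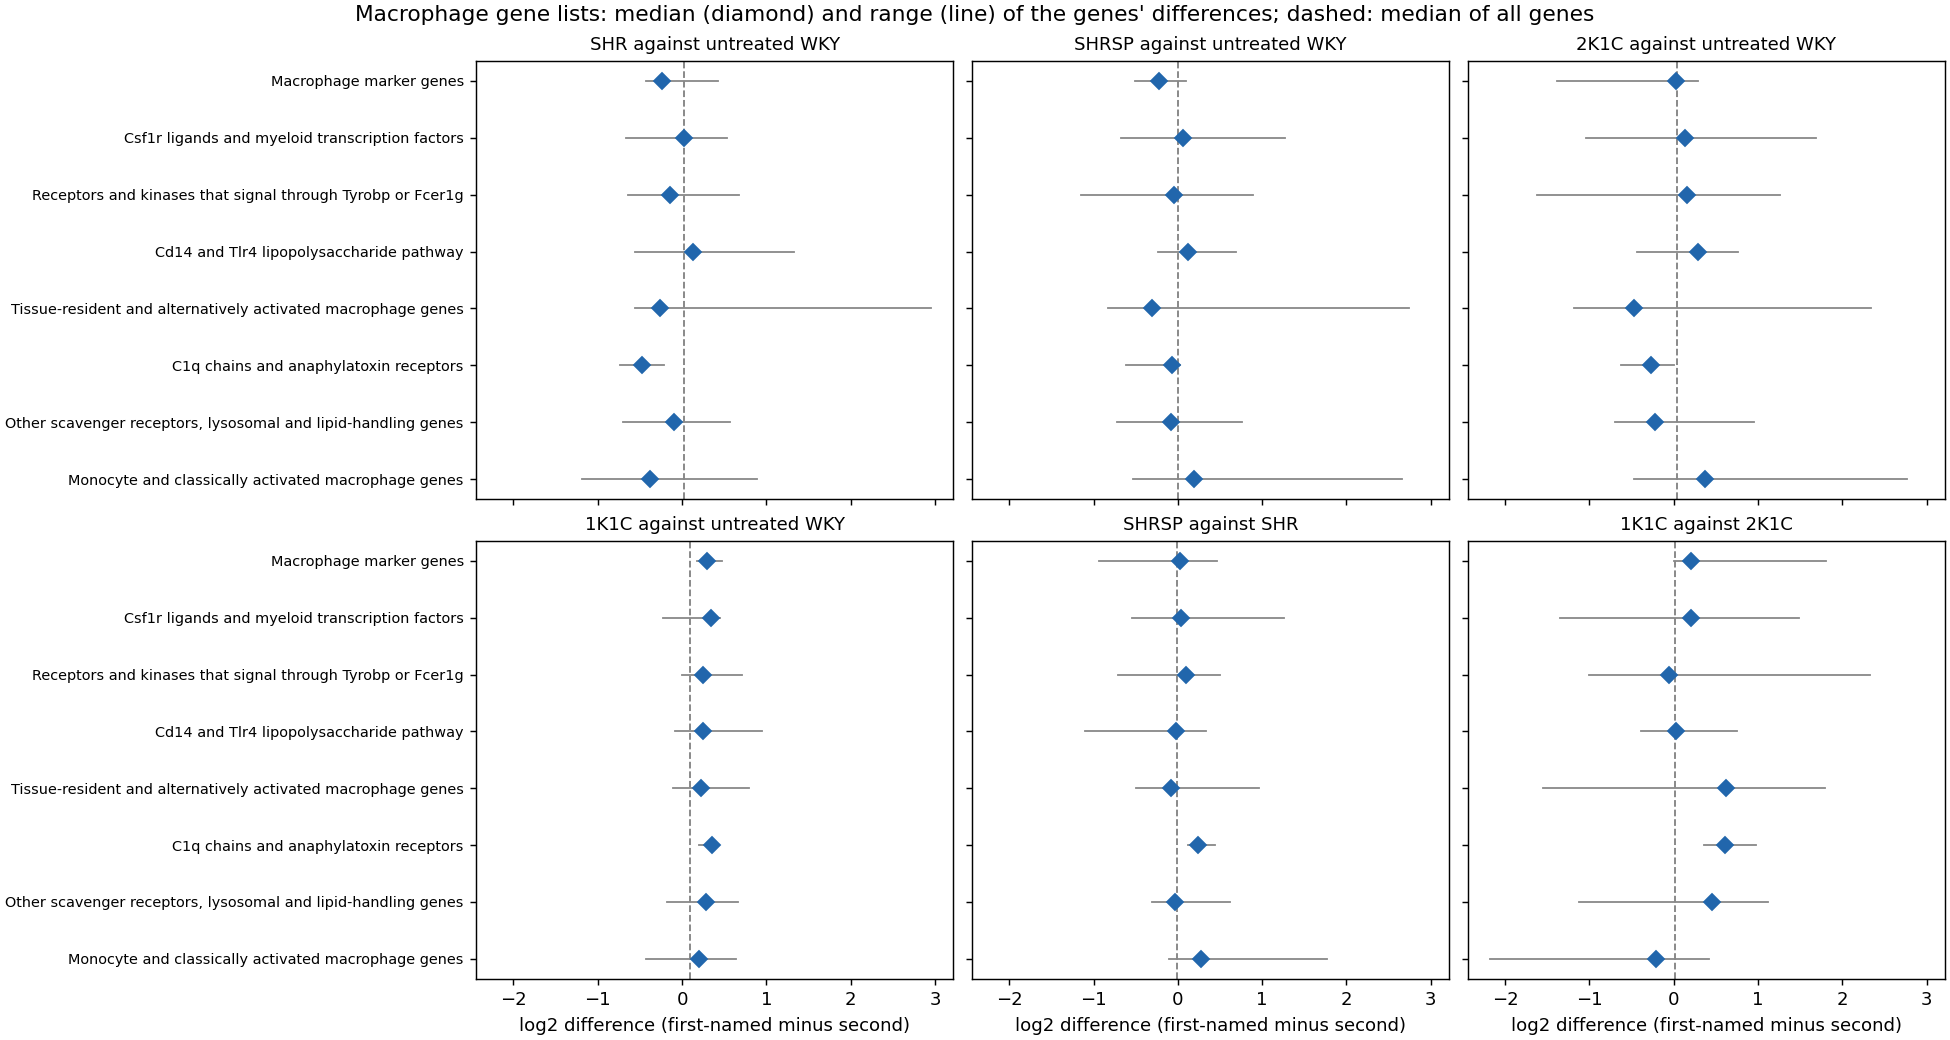
Median (diamond) and full range (line) of the log2 differences of the marker genes and of 7 lists of macrophage pathway genes in 6 comparisons, with the median of all tested genes as a dashed line. The resident macrophage list has its highest median, 0.62, in 1K1C against 2K1C, and the 5 genes of the C1q list are all above 0 there.

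Calls among the marker lists of other cell types were few. The fibroblast gene Dpt, which encodes dermatopontin, rose in SHRSP by 1.28 ± 0.24 (limma adjusted p = 0.00627) and in SHR by 1.62 ± 0.24 (adjusted p = 0.000785) relative to untreated WKY. The neuron genes Prph and Gap43 fell in both strains, with differences of -3.51 and -3.02 in SHRSP and -3.50 and -2.97 in SHR. Rbfox1 fell in SHRSP, with a difference of -3.82. Dpt was called in all 18 alternatives in SHR and in 17 of 18 in SHRSP, and Rbfox1 in 16 of 17. Gap43 and Prph were called in 9 and 7 of 18 in SHRSP and in 8 each in SHR. The mean log2 neuron level was -1.83 to -1.48 in SHRSP, -2.07 to -0.94 in SHR, and 4.28, 0.46, 1.06 and -0.99 in untreated WKY. Without untreated WKY replicate 1, Prph differed by -2.58 in SHRSP (limma adjusted p = 0.0822) and by -2.56 in SHR (adjusted p = 0.0989). No gene of the neutrophil, mast cell, dendritic cell, lymphocyte, pan-leukocyte, lymphatic endothelium, blood endothelium, smooth muscle, adipocyte, mesothelium or pancreas list was called by limma in any of the 6 comparisons.

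Promoter sequence is shown for Cd163, Mrc1 and Cd14 because these genes varied together, from the RefSeq table of build GRCr8, which held 6 of the 10 markers. Each window is the 300 bases that the table gives around 1 annotated start. That start need not be the outer end of the gene: the Cd14 and Marco windows lie inside the bounds that RefSeq gives for those genes. Capitals mark the letters GAGGAA on either strand (TTCCTC on the other), a core bound by the myeloid factor PU.1; matches of the motif with itself do not overlap. The Cd163 window is chr4:158770524-158770823 (+) and held 0 matches, the Mrc1 window chr17:82157475-82157774 (+) held 2, and the Cd14 window chr18:28611109-28611408 (-) held 2. Of all 33469 promoters of this length 27.6% held at least 1 match and 4.83% at least 2. Of the other markers in the table, Cd68 and Csf1r held 2 each and Marco 1. A match is a description of letters and not of binding.
Cd163 promoter: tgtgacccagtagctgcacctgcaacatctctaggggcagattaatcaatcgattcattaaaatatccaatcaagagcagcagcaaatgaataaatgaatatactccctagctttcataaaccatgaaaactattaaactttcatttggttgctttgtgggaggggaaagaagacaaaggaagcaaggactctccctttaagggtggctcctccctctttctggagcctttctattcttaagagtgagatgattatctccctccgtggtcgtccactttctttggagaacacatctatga
Mrc1 promoter: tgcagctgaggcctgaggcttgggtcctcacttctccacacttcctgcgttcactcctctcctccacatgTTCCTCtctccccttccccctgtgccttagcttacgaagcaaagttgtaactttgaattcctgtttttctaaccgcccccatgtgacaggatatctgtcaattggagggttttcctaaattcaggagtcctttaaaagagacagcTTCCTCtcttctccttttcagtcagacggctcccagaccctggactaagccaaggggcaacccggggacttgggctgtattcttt
Cd14 promoter: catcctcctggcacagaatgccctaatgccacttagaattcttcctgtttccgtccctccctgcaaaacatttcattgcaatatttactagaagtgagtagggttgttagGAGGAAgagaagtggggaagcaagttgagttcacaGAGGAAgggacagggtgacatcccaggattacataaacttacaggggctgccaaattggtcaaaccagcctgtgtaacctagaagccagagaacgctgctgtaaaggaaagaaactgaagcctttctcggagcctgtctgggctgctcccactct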

How the data were processed

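Cy3-labelled RNA of 20 mesenteric artery samples was read on 20 Agilent rat arrays of 62976 features, per the file headers. The submitters' processing notes name Feature Extraction 10.7.3.1 as the source of each spot's intensity, and the deposited processed signal is background-subtracted and linear, per the file headers. The deposited value table held the same intensity for every spot, to a largest relative difference of 0, with no scaling between arrays.

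Each level is the log2 processed signal from which the 75th percentile of the same array (control spots left out) was subtracted. The 4259 control spots and outlier-marked spots (301 to 684 per array) were left out, and spots of a probe were averaged. A spot share over 0.5 well above background counted a probe as above background on an array; a probe was kept where this held on all 4 arrays of at least 1 group, and the probe with the highest mean stood for a gene. A symbol from a RefSeq table replaced the file's name for 18355 of 30367 probes (60.4%); the other probes kept it. All 5 groups were fitted with limma 3.58.1 in R 4.3.3, two-sided, without covariates. Between 66.5% and 71.7% of non-control spots were well above background, and the number of arrays limits the precision. On simulated data for SHRSP against SHR (16420 genes), 60% of genes moved by 1 log2 unit and 89% of those moved by 2 were called, with 8 false calls among 157. The simulated noise was independent between genes, with no shift shared by the genes of an array. These shares are over genes of any spread. The tested markers other than Msr1 had SEs of 0.43 to 0.63 in that comparison, against 0.19 for Msr1, and the share for the markers was not tested.

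The markers and the gene lists were chosen with earlier results of these data known. The naming rule took all 10 markers with every probe. From each list and comparison it took up to 4 called genes with the largest differences, or up to 2 genes where none was called, and only some of the latter are given. It also took the 5 genes most like the markers by each of 2 correlations. Rbfox1, Prph, Gap43, Dpt, Nfkbia and Lbp are the called list genes, and Micu3 and Tusc3 were named as the genes adjacent to Msr1. Replicate numbers were not used to pair the arrays in the reported analysis. In each comparison at most 2 of 4 same-numbered correlations of deviations from group means exceeded 0.1. The highest was 0.57, in 1K1C against untreated WKY. Arrays with different numbers were not set beside these, so whether the numbers pair the arrays was not tested. Alternatives were other normalizations, background corrections, filters and features, array weights, a replicate block and leaving out arrays; leaving out 2K1C replicate 4 and SHRSP replicate 4 together was chosen after seeing the data.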

Additional observations from a re-analysis of the deposited data

Results flagged for a closer look

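In 3 of 45 groups of 4 arrays (9 tested markers in 5 groups), 1 array lay far from the other 3 of its group; chance alone marks about 1 in 20 groups. Cd14 was 1.78 on SHR replicate 1, with the nearest SHR array at 0.22, and Cd68 was 0.54 on the same array, with the nearest at -0.98. That array had the highest mesothelium level of all 20. Csf1r was -0.55 on 2K1C replicate 4, with the nearest 2K1C array at -2.10, on the array with the highest lymphocyte level. The part of those other cells in these values was not tested.

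Msr1 differed between the hypertensive strains, by -0.94 in SHRSP against SHR.

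Marco, which entered no comparison, had a processed signal of 554 on SHRSP replicate 4, 310 on 2K1C replicate 2 and 399 on 2K1C replicate 4, each above the highest untreated WKY array at 71.7. These are also the 3 arrays with the highest mean log2 lymphocyte levels, but SHR replicate 1, at -2.44 next to -2.42 on 2K1C replicate 2, had a Marco signal of 8.16, not above background.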

How the results depend on the processing

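Over 1020 alternative fits of the markers, signs changed in 97, none of them in a difference that was called before or after. The number of called markers was 0 in SHRSP against SHR (1 in the reported analysis) with unscaled deposited values, no filter on dim probes, normexp, only probes above background on all arrays, the replicate block (Msr1 adjusted p = 0.0838), and without both 2K1C replicate 4 and SHRSP replicate 4, and it ran from 0 to 0 when 1 array was left out. With array weights 4 of the 9 tested markers were called in SHR, 2 in SHRSP and 3 in 2K1C, each against untreated WKY. In the same fits 7659, 5540 and 4805 of the 16424 tested genes were called. Leaving out 1 array gave 0 to 1 called markers in SHR against untreated WKY and in 1K1C against 2K1C. The 1 was found without untreated WKY replicate 4 and without 1K1C replicate 4, where 669 and 1896 of all tested genes were called.

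For the other gene lists the count of called genes stayed within 1.5 times in 2160 alternative fits and moved further in 120, of which 64 were with array weights, 10 without untreated WKY replicate 4 and 8 without 1K1C replicate 4. Counts of all called genes moved more. In SHR against untreated WKY (303) they were 7659 with array weights, 120 unscaled, 186 with only probes above background on all arrays and 102 in a fit of only those groups; in SHRSP against untreated WKY (393) they were 5540 with array weights, 207 unscaled and 161 with only those groups. In 2K1C against untreated WKY (2) they were 4805 with array weights, 0 unscaled, 70 with normexp, 0 with only those groups and 1 without both arrays named above; in 1K1C against untreated WKY (0), 586 with array weights, 2 unscaled and 7 with quantile normalization. In SHRSP against SHR (59) they were 880 with array weights, 39 unscaled, 29 with only probes above background on all arrays, 39 with only those groups and 57 without both arrays, and in 1K1C against 2K1C (0), 1 without both arrays. Leaving out 1 array gave 124 to 669, 172 to 911, 0 to 870 and 0 to 205 against untreated WKY for SHR, SHRSP, 2K1C and 1K1C, 38 to 54 for SHRSP against SHR, and 0 to 1896 for 1K1C against 2K1C. The highest were without untreated WKY replicate 4 (669, 911, 870 and 205) and without 1K1C replicate 4 (1896). Called genes split into 137 higher and 166 lower in SHR against untreated WKY, but 202 and 133 after quantile normalization, 221 and 118 scaled to the median and 192 and 128 with normexp. They split into 189 and 204 in SHRSP against untreated WKY (143 and 64 unscaled), and into 34 and 25 in SHRSP against SHR (24 and 27 quantile, 26 and 31 median). The cause of these moves was not tested, beyond the fewer arrays or probes in some fits. Replicate numbers were not used to pair the arrays, except in the replicate block. Signals near background limit Mrc1 and Marco most.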
